A study of Mus musculus with 59 samples.

Results

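The protein side of the cytosolic ribosome was followed through 59 single mouse cells. Members are all genes whose symbol starts with Rpl or Rps and a digit, plus Rpsa, Rplp0, Rplp1 and Rplp2. Symbols that contain -ps and the Rps6 kinases were left out. This rule took 92 of the 20689 genes in the expression table. By textbook role, 43 of them encode core proteins of the large subunit, 3 encode the P stalk and 31 encode core proteins of the small subunit. The other 15 are 14 paralogs or near copies and Rps19bp1, which shares the prefix but encodes a protein that binds Rps19. Of the copies, the GENCODE M21 annotation types Rps4l and Rpl37rt as transcribed processed pseudogenes. It types Rps12l1, Rps3a2 and Rps3a3 as processed pseudogenes.

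The cells carry the label chemical-induced neurons and an age label of 12 weeks, in a series on the chemical conversion of astrocytes to neurons within the mouse brain. Per the labels, each soma was drawn into a patch pipette in vivo and lysed for a library of its own. The labels name no strain, animal, compound or dose, and control neurons, astrocytes and untreated cells were not analysed here. All 59 cells form 1 group with no named animal, so every value below describes these cells, and no test between groups was possible.

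The ribosome translates messenger RNA into protein. Its small subunit reads the message and its large subunit joins the amino acids, and each particle carries 1 copy of most of its proteins, with the P stalk proteins P1 and P2 as the main exception. Messages of ribosomal proteins are among the most abundant in growing and resting cells alike. In mammals most of them start with a pyrimidine-rich stretch, the 5′ terminal oligopyrimidine (TOP) motif, through which the kinase mTOR sets how well they are translated. In neurons, ribosomal protein messages are found in dendrites and axons as well as in the soma.

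The cells differed widely in how much could be read from them. Estimated depth ran from 29043 to 2950402 fragments with a median of 912996, and the count of genes read at 1 FPKM or more (fragments per kilobase of exon, scaled to all mapped fragments) ran from 475 to 10310 with a median of 3984. In 31 cells, 1 fragment in a gene of 1 kb already exceeds an FPKM of 1, so detection there can rest on 1 fragment. No pair of cells held identical values (0 pairs). All 18 neuronal markers were detected in at least 30 cells, and the summed FPKM of the neuronal list had a median of 1235 over cells (0 to 6128). Markers of other brain cells were present as well. At least 30 cells were also reached by 9 of 10 oligodendrocyte, 7 of 12 microglia and 5 of 12 astrocyte markers. Among the 8 endothelial and mural markers, 0 did so. The 10 oligodendrocyte markers summed to a median of 2550 FPKM (14.6 to 29150), the 12 microglia markers to 861 FPKM (0 to 36230) and the 12 astrocyte markers to 369 FPKM (0 to 3887), whereas the 8 endothelial and mural markers were at a summed median of 0 FPKM (0 to 168). Marker messages of several cell types were thus read in these libraries, and their part in the ribosomal protein levels was not tested.

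Ribosomal protein messages were read in most cells. Of the 92 members, 79 reached the detection threshold in 30 or more of the 59 cells, where the background over all genes is 11.7%, and the median member was detected in 84.7% of cells against 11.9% for all genes. Of the 77 core genes, 76 reached 30 cells and 48 reached 50 cells. The remaining core gene, Rpl24, was detected in 3 cells and is described below. No core gene was free of zeros, since all 77 were listed at 0 in at least 1 cell.

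The most widely detected member was Rps27, a zinc-finger protein of the small subunit, which was read in 58 of 59 cells (98.3%, exact Clopper-Pearson lower 95% limit 90.9%, which like all such limits here covers counting error over cells only). Rpl37a, a zinc-finger protein of the large subunit, followed with 57 cells. Rplp1, Rps26, Rps29 and Rps21 were each read in 56 cells. Detection was alike in both subunits: the median large subunit gene was read in 50 cells, the median small subunit gene in 52 and the median P stalk gene in 53.

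**Figure D1:**
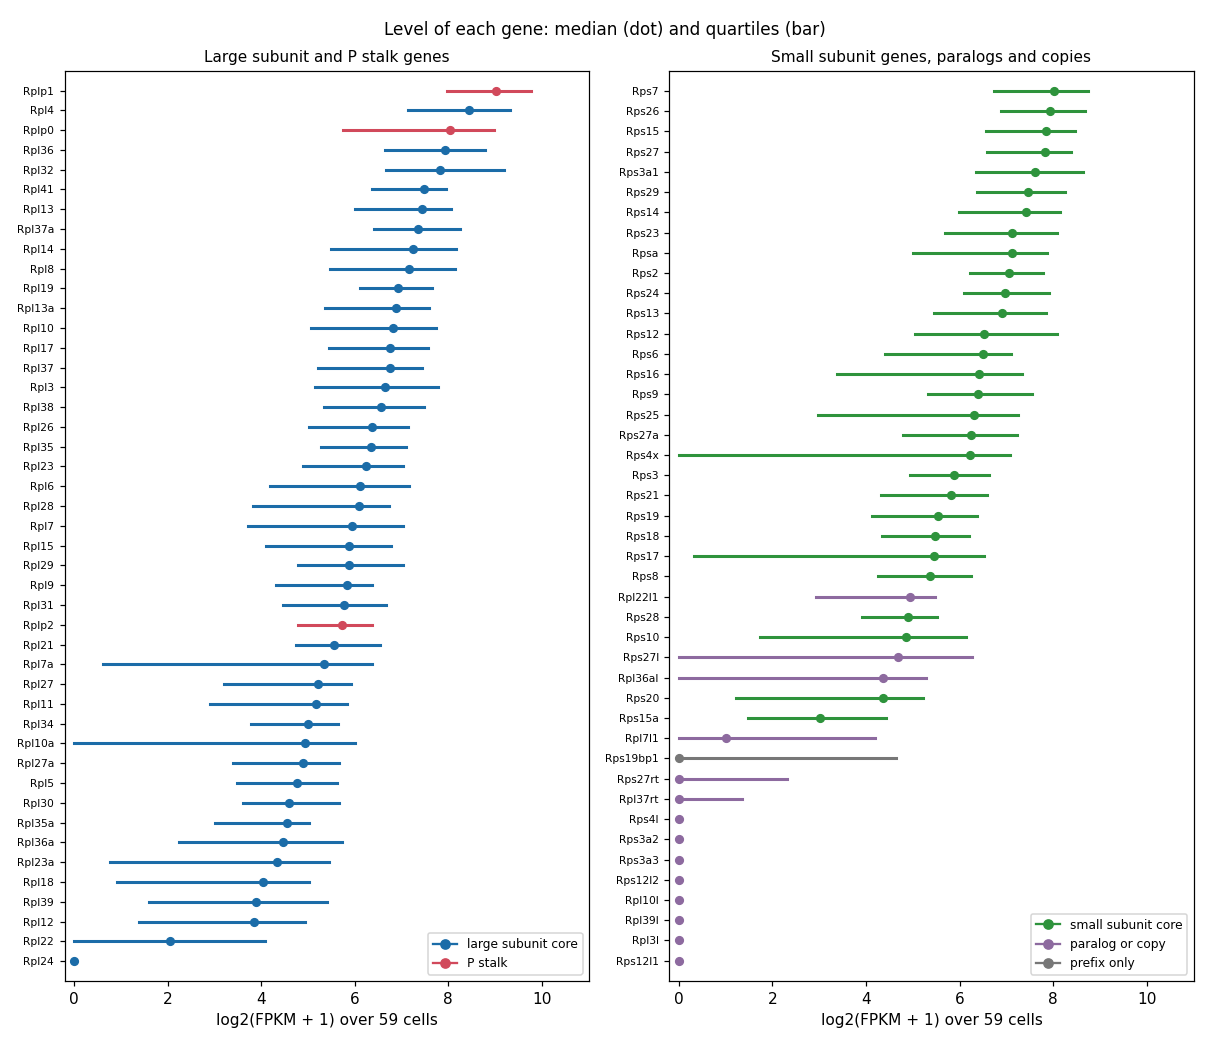
Median (dots) and quartiles (bars) of log2(FPKM + 1) over 59 cells for 89 of the 92 genes, grouped by role and ordered by median. Rplp1 and Rpl4 lead the large subunit panel, Rps7 leads the small subunit panel, and most paralogs and Rpl24 have a median of 0.

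Zeros were spread unevenly over the core genes. In Rpl10a, Rpl22 and Rps4x, besides Rpl24, the lower quartile over cells was 0 FPKM, so at least 16 cells were at 0 for each. Rps4x was nevertheless at a median of 73.9 FPKM and an upper quartile of 133 FPKM. Rps21 shows the opposite pattern, since it was read in 56 cells at a lower median of 55.8 FPKM (quartiles 18.9 and 94.5).

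Levels within the P stalk differed between its 3 genes. Rplp1, which encodes the flexible stalk protein P1, had the highest median of all members. Its FPKM ran from 0 to 2921 with a median of 519 and quartiles of 250 and 873. Rplp0, which encodes the stalk base P0, ran from 0 to 2984 FPKM with a median of 262 and quartiles of 52.7 and 502. Rplp2, which encodes the partner protein P2, ran from 0 to 548 FPKM with a median of 51.9. The quartile ranges of Rplp1 and Rplp2 did not overlap, while that of Rplp0 spanned the whole gap between them and overlapped both. Cell 27, which had the fewest genes detected of all cells (475), held the highest value of both Rplp1 and Rplp0.

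In the large subunit, Rpl4, whose protein lines the tunnel through which the new peptide leaves, had the highest median. Its FPKM ran from 0 to 1772 with a median of 346 and quartiles of 140 and 637, and 9 cells were at 0. Rpl36 was also among the 10 highest medians, at 243 FPKM. Neighbours in this order do not stand apart, since their quartile ranges overlap. At the low end, Rpl22, an RNA-binding protein at the surface of the particle, ran from 0 to 88.7 FPKM with a median of 3.15 and was read in 36 cells. Rpl12 had a median of 13.4 FPKM and Rpl39, a small protein of the exit tunnel, of 13.8 FPKM. The median over the large subunit genes was 60.2 FPKM. Rpl5 and Rpl11, which bind the 5S ribosomal RNA and, outside the ribosome, the p53 regulator Mdm2, lay below it at 26.4 and 34.9 FPKM and were read in 53 and 47 cells. Rpl10, which joins the subunit late in its assembly, ran from 0 to 627 FPKM with a median of 111.

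In the small subunit, Rps7 had the highest median, at 260 FPKM, and Rps26 was at 245 FPKM. Rps26, which lies where the message leaves the subunit, ran from 0 to 3378 FPKM, again with its highest value in cell 27, and its quartiles were 118 and 407. Rps15 and Rps27 were at 230 and 227 FPKM. Rps15a was lowest, with a range of 0 to 106 FPKM and a median of 7.08, although it was read in 46 cells. The other small subunit genes lay between these, and the median over all 31 was 83.9 FPKM. Rps6, the protein that S6 kinase phosphorylates below mTOR, ran from 0 to 347 FPKM with a median of 89.9 and was read in 48 cells. Rps3, which lines the entry of the message channel, had a median of 58.1 FPKM and quartiles of 29.7 and 98.2 FPKM, and Rps27a, made as a fusion with ubiquitin, had 75.1 FPKM. Within a cell, the mean FPKM of large subunit genes divided by that of small subunit genes had a median of 0.833 (0.336 to 1.39). The 3 P stalk genes are in neither mean. Large subunit genes had the higher mean in 8 cells, and in 19 when the P stalk was counted with them, which moved the median ratio to 0.940.

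These levels depend on the length they are divided by. Over the union of all annotated exons in GENCODE M21, core genes had a median length of 1781 bases (383 to 6270), whereas the shortest transcript with an APPRIS principal tag, the annotation's main protein-coding form, had a median of 729 bases (271 to 3706). The ratio of both lengths had a median of 2.35 and reached 9.80 in Rps15a, and it was above 3 in 27 core genes. Across the 77 core genes, which are not independent replicates, median FPKM had a Spearman correlation of −0.43 with the union length and of 0.11 with the principal length.

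Dividing the same estimated fragments by the shortest principal length changed the order of the members. The median core gene moved from 75.1 to 184, both on the FPKM scale. Only 5 genes were among the 10 highest in both orders, and the orders had a Spearman correlation of 0.83 over 77 genes. Rplp1, whose 2 lengths are equal at 499 bases, stayed at 519 and took rank 7. Rps27 led with 688, followed by Rps14 at 681 and Rps7 at 639. Rplp2 moved from 51.9 FPKM to 255 on its shortest principal form of 421 bases but to 111 on its longest, against 320 for Rplp0 on either. Rps15a moved from 7.08 FPKM to 69.4 on the shortest form and to 8.57 on the longest. For Rpl22 the shift was from 3.15 FPKM to 19.3 and to 4.47, so for these 3 genes the level depends on which principal form is used. Which transcripts the cells made was not measured, so neither length can be preferred from these values.

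**Figure D2:**
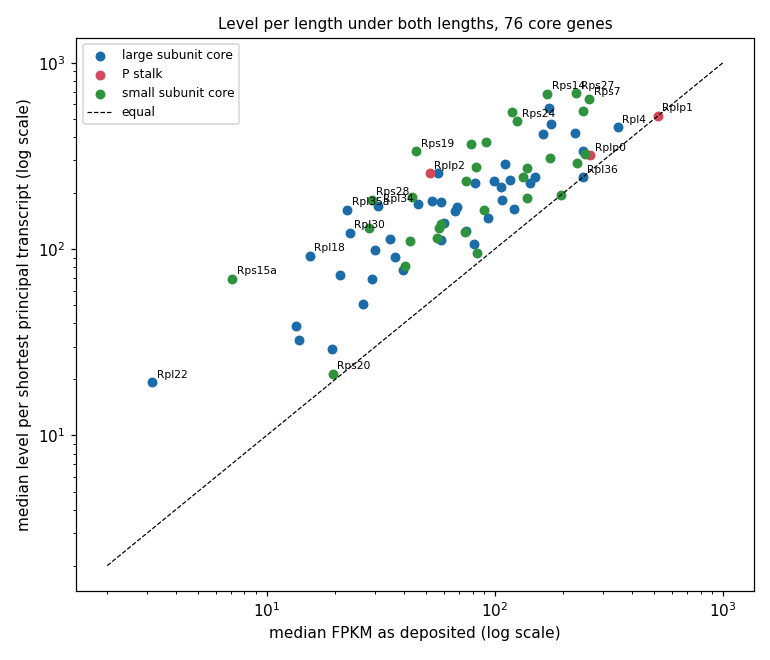
Median FPKM as deposited (x axis) against the level per shortest principal transcript (y axis), both on log scales, for the 76 core genes with a median above 0. Rplp1 and Rpl36 lie on the dashed line of equality, while Rps15a, Rps19 and Rps24 lie far above it.

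Rpl24, whose protein forms part of a bridge between the subunits, stood apart from the other core genes. It was listed at 0 in 55 of 59 cells. The 4 cells above 0 were cell 32 with 88.4 FPKM, cell 13 with 3.29, cell 21 with 1.32 and cell 60 with 0.38, and 3 of them passed the detection threshold (5.08% of cells, exact 95% interval 1.06 to 14.1%). The gene lies at chr16:55966275-55971435 on the plus strand of GRCm38. In GENCODE M21, 484 of its 1030 exon bases and 71.5% of its principal transcript lie on exons of Gm28037 on the same strand, a gene that was not analysed here. Only 18.3% of the 50-base words of its principal transcript occur in no other annotated transcript.

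Overlaps of this kind were also found in other members, over a smaller part of their union of annotated exons. They covered 475 of 2311 exon bases in Rps10, 748 of 2114 in Rpl13a and 332 of 1353 in Rpl36al. Rps10, a small subunit protein near the entry of the message channel, has 91.6% of its principal transcript on exons of another gene of its strand. Rps10 was read in 44 cells with a median of 28.1 FPKM, rank 65 among the core genes. Rpl13a has 59.3% of it so placed and was read in 54 cells with a median of 117 FPKM. Rpl36al, a paralog, has 63.1% and was read in 43 cells. The part of the overlap in the value of Rpl24 was not tested.

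Ribosomal protein genes have many near copies in the mouse genome, which bears on any short-read count. For the median core gene, 44.5% of the 50-base words of the principal transcript occurred in no other annotated transcript, and for 47 core genes the figure was under 50%. It was lowest for Rps27, at 1.35%. Only annotated transcripts were searched and the read length is not given in the sources used here, so these shares are upper limits for words of that size. Across 77 core genes, the share had a Spearman correlation of 0.13 with median FPKM and of 0.19 with the number of cells detected. Rps27 combined the lowest share among the core genes with the widest detection of all members.

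The table also holds 129 pseudogene rows whose symbol joins an Rpl or Rps stem with -ps, which are not members. Of these, 6 were detected in at least 30 cells, led by Rpl9-ps6 in 40 cells and Rpl21-ps15 in 39. Summed over each cell, these -ps rows amounted to a median of 1.76% of the members' FPKM. Cell 6 had the highest value, 27.2%. Rows under other symbols that share words with members are not in this sum, so it does not cover all copies. Gm10076, which shares 206 of the 388 50-base words of the Rpl41 transcript, had a median of 79.9 FPKM and was detected in 51 cells. Gm10736, which shares 29 of them, had a median of 364 FPKM and was detected in 52 cells. Reads of a gene and of its processed copies cannot be told apart where their sequences are identical.

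The clearest example of a shared sequence is Rps27 and its copy Rps27rt. The first 90 coding bases are shown for them and for the diverged paralog Rps27l because they show how much a read can distinguish. Capitals mark the bases that differ from Rps27, and the letters come from GENCODE M21 transcripts.
Rps27: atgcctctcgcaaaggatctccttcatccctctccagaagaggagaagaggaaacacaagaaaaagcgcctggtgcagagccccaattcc
Rps27rt: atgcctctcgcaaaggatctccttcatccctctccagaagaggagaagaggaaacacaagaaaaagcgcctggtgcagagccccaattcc
Rps27l: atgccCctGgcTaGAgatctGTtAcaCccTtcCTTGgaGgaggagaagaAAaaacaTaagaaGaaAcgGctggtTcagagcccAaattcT

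Rps27 and Rps27rt were identical over all 252 coding bases (0 differing), whereas Rps27l differed at 60 of them (76.2% identity). Yet the rows did not share their values evenly. Rps27rt ran from 0 to 43.1 FPKM with a median of 0, was detected in 22 cells and was above Rps27 in 0 of 59 cells, which allows a share of up to 6.06% (exact 95% limit). Rps27l, a gene that p53 is known to activate, was read in 39 cells. Its FPKM ran from 0 to 1151 with a median of 24.6, and its highest value, in cell 62, was also the highest of any paralog. It exceeded Rps27 in 6 cells and was below it in 52.

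Rpl22 and Rpl22l1 were the pair in which the paralog had the higher level. Rpl22l1 encodes a close relative that can take the place of Rpl22 in the ribosome, and Rpl22 protein is known to hold back Rpl22l1 expression. Rpl22l1 ran from 0 to 321 FPKM with a median of 29.7, was detected in 47 cells and was the highest of all paralogs by median and by detection. It was above Rpl22 in 41 of 59 cells (69.5%, exact 95% interval 56.1 to 80.8%) and below it in 12. The order did not rest on the length: Rpl22l1 had more estimated fragments in 39 cells against 14, and per principal transcript it was higher in 38 cells with the shortest form and in 46 with the longest. Both genes were detected together in 30 cells, Rpl22l1 alone in 17 and Rpl22 alone in 6. Over 59 cells, which share differences in depth, their Spearman correlation was 0.13. Rpl22 followed the number of genes detected (0.55) more than Rpl22l1 did (0.20).

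Rpl36a and its relative Rpl36al had like deposited FPKM, and their values were correlated over cells. The first 90 coding bases of both are shown because, unlike for Rps27rt, scattered differences separate the copies.
Rpl36a: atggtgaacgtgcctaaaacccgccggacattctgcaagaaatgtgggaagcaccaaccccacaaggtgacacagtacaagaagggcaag
Rpl36al: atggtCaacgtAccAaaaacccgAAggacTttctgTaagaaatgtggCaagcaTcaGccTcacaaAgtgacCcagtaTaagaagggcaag

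The sequences differ at 39 of 318 coding bases (87.7% identity). Rpl36a ran from 0 to 419 FPKM with a median of 21.1, and Rpl36al from 0 to 172 FPKM with a median of 19.6. Rpl36al was above Rpl36a in 23 cells and below it in 28. By estimated fragments, Rpl36al was above in 17 cells and below in 34. Per shortest principal transcript it was above in 16 cells and per longest in 8, so the near-even split holds for the deposited FPKM only. Their Spearman correlation over 59 cells was 0.56, against 0.13 for Rpl22 and Rpl22l1. Rpl36al followed the number of genes detected at 0.51 and Rpl36a at 0.31, and the part of this in their correlation was not tested.

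**Figure D3:**
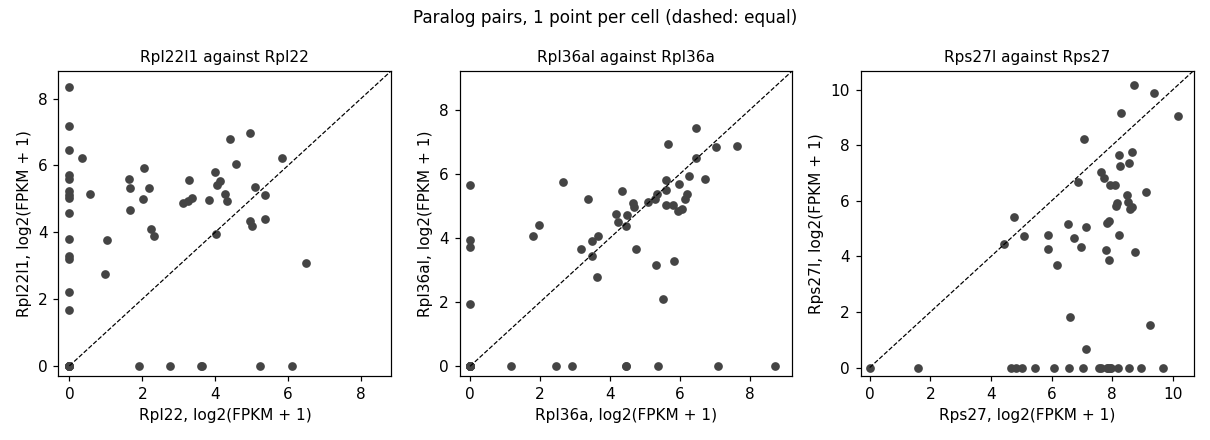
log2(FPKM + 1) of 3 paralogs (y axes) against the gene each resembles (x axes), with 1 point for each of the 59 cells and a dashed line at equal values. Rpl22l1 lies above the line in 41 cells, Rpl36al in 23 and Rps27l in 6.

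The other paralogs and copies were read in fewer cells. Rpl7l1, a relative of Rpl7 that acts in ribosome assembly, was read in 29 cells, and its median was 1.00 FPKM. Rps4l, annotated as a transcribed processed pseudogene, was detected in 14 cells but reached 654 FPKM in cell 1, where 37 members were detected. Rpl37rt was detected in 20 cells, Rps3a2 in 10, Rps3a3 in 8 and Rps12l2 in 2. Paralogs known for use in a specialised tissue were each detected in 1 cell: the muscle form Rpl3l at 57.2 FPKM in cell 40, and the testis forms Rpl10l at 1.15 FPKM and Rpl39l at 4.25 FPKM, both in cell 11. Rps12l1 was likewise detected in 1 cell, at 1.37 FPKM. The 14 paralogs and copies together made up a median of 1.53% of the members' FPKM (0 to 16.6%, the highest in cell 1). Rps19bp1 was read in 26 cells and had a median FPKM of 0.

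How far the whole family could be read depended on the cell. The number of members detected ran from 11 in cell 53 to 86 in cell 21 with a median of 78, and 10 cells had fewer than 50. At least 70 of the 77 core genes were detected in 35 cells, and 20 cells had at least 76. The number of members had a Spearman correlation of 0.90 with the number of genes detected in the 59 cells. With only the 46 cells that had at least 2000 genes, the median was 80 members and 93.5% of these cells for the median member.

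**Figure D4:**
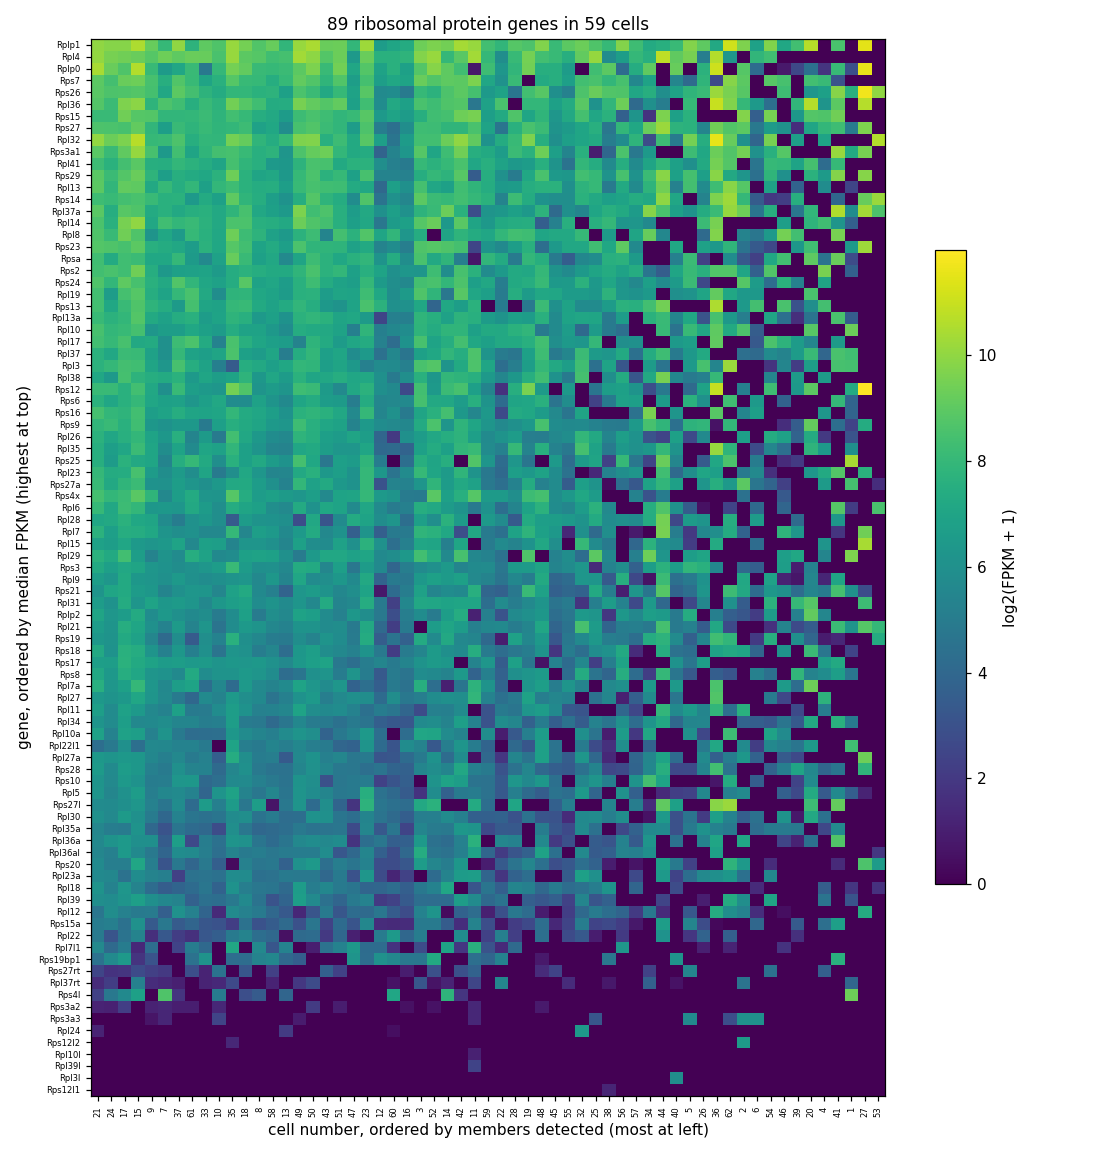
log2(FPKM + 1) of 89 of the 92 genes (rows, highest median at top) in the 59 cells (columns, most members detected at left). Cells at the left hold nearly all core genes, while cells 27 and 53 at the right hold 24 and 11 members at high values and the rest at 0.

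The share of a cell's summed gene FPKM that went to ribosomal protein genes had a median of 2.14%, with quartiles of 1.37 and 3.28%. This is a share of FPKM, not of molecules. It was lowest in cell 6 at 0.448% and highest in cell 27 at 5.47%, under 1% in 3 cells and over 4% in 7. Unlike the number of members, the share had a Spearman correlation of −0.002 with the number of genes detected (59 cells). Cell 27 had the fewest genes of all, 475, and cell 17, with 5.31%, had 9148. The share moved with what else was counted: the ribosomal RNA row Rn18s-rs5 alone held between 2.19 and 82.9% of the summed FPKM, and without it and the mitochondrial genes the median share was 4.14%.

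**Figure D5:**
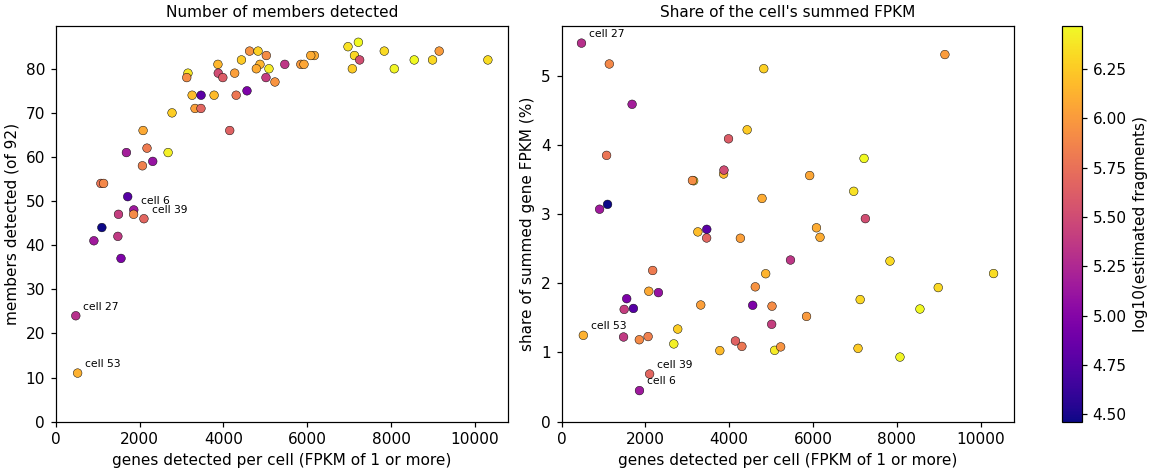
Members detected (left, of 92) and the members' share of summed gene FPKM in percent (right) against the number of genes detected, with 1 point per cell and colour for the log10 of estimated fragments. The left panel rises and levels off near 80 members, while the right panel shows no trend, with cell 27 highest and cell 6 lowest.

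No single gene led in every cell. Rplp1 was the highest member in 23 cells, Rpl4 in 13 and Rpl32 and Rplp0 in 4 each, and 15 different genes led somewhere. The leading gene held a median of 7.71% of the members' FPKM. In the 13 cells with fewer than 2000 genes its share had a median of 13.1% (8.70 to 31.0%), against 6.44% in the other 46 cells. In cell 53, with 519 genes and 1318871 estimated fragments, Rpl32 held 31.0%. In cell 1, with 1554 genes, Rps25 held 23.2%. In cell 27, Rps12 held 15.1% at 4054 FPKM. Cells 53 and 27 also had large shares of spike-in FPKM, at 22.9% in cell 53 and 34.7% in cell 27 against a median of 3.70% over all cells.

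Most members varied less between cells than genes of like deposited FPKM. For the 84 members detected in at least 12 cells (background 38.9% of genes), the SD of log2(FPKM + 1) over cells was set against a running median over genes ordered by their mean level. It was below in 66 members (78.6%), where the background is 49.9%, with a median difference of −0.34 against 0 for all genes. Among the core genes it was below in 62 of 76. The most even were Rpl34 and Rps28, each 1.17 below, followed by Rpl35a (−1.08), Rps27 and Rps21 (−0.99). Rps4l (0.64), Rpl4 (0.55), Rplp0 (0.43), Rps27l (0.33) and Rpl14 (0.32) lay furthest above. Rpl4, the large subunit gene with the highest median FPKM as deposited, was thus also one of the most uneven, whereas Rplp1 lay below the running median (−0.50). Per shortest principal transcript, Rpl13 at 575 and Rpl41 at 473 were above Rpl4 at 451. With a pseudocount of 0.1, which gives zeros more weight, 65.5% of members lay below. The ratio of union to shortest principal length ran from 2.06 to 7.18 in the 5 most even members. In the 5 most uneven it ran from 1.20 to 1.64. Over 76 core genes, the difference from the running median had a Spearman correlation of −0.28 with the union length. The part of length in this evenness was not tested.

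Pairs of members rose and fell together only moderately. Over the 3486 pairs among 84 members, the median Spearman correlation across 59 cells was 0.34, and among core genes it was 0.36. The value was 0.36 within the large subunit, 0.36 within the small subunit and 0.36 between them, so the 3 medians were equal at this rounding. All pairs share the cells' differences in depth and in genes detected, and given the number of genes detected the members' median was 0.30. Over all genes detected in at least 12 cells the median was 0.22. Of other constitutive sets, 45 nuclear genes of oxidative phosphorylation at 0.38 and 74 mitochondrial ribosomal protein genes at 0.30 lay close to the members. The 24 other TOP and translation genes, at 0.26, lay nearer to the value of all genes. Marker lists of single cell types were higher, at 0.53 for the neuronal and 0.65 for the oligodendrocyte list.

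The closest pair was Rpl30 and Rps18, proteins of different subunits, at 0.76, followed by Rpl13 and Rpl13a at 0.73. The lowest was Rpl22l1 with Rpl28, at −0.14, and Rpl22l1, Rps19bp1 and Rps27rt were each in 2 of the 8 lowest pairs. Against the mean of the other members, genes detected in at least 30 cells had a median of 0.55. Rps4x, the X-linked form of a small subunit protein, was highest at 0.81, and Rps26 was lowest at 0.27 in spite of being among the most widely detected.

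Among the 2334 genes outside the members that were detected in at least 30 cells, the median Spearman correlation with the members' mean level was 0.35 (59 cells). The 10 most alike outside all lists were Hmgn1 at 0.77, Gm10076 at 0.73, Tubb5 at 0.72, then Gpx1, Ly6e, Ubl5, Ldha, Fam103a1, Dnajc15 and Ube2m down to 0.67. Hmgn1 encodes a nucleosome-binding protein and Tubb5 a tubulin. Gm10076 shares 206 of the 388 50-base words of the Rpl41 transcript, so reads of those words cannot be assigned to either gene by sequence. Of the listed genes, Fau, which encodes a small subunit protein under another symbol, reached 0.75, and the elongation factor gene Eef2 reached 0.71.

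Genes that build, regulate or work with the ribosome were described from lists, by the same threshold. Fau was read in 55 cells with a median of 289 FPKM, and Gnb2l1, which encodes a scaffold protein of the small subunit, in 36 with 10.7 FPKM. Of 24 other TOP and translation genes, 23 (95.8%) were detected in at least 30 cells, where the background over all genes is 11.7%. They ran from the elongation factor Eef1a1 in 58 cells to Vim, an intermediate filament gene, in 15. All 45 nuclear genes of oxidative phosphorylation reached 30 cells. Of 76 mitochondrial ribosomal protein genes, 29 did (38.2%). So did 7 of 23 ribosome biogenesis genes (30.4%), a list that ran from nucleolin (Ncl, 50 cells) to the RNA polymerase I subunit Polr1a (9 cells). Among 13 mTOR pathway and TOP regulators, 2 did (15.4%), a share near the 11.7% of all genes. The mTOR activator Rheb led this list with 42 cells, while the translation repressor Eif4ebp2 and the transcription factor Mycn were read in 2 cells each.

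The members' mean log2(FPKM + 1) in a cell was compared with other measures of the same cell by Spearman correlation over 59 cells. It was 0.69 with the number of genes detected, 0.43 with estimated depth and −0.56 with the spike-in share, and given the number of genes detected the values for depth and spike-ins were 0.08 and 0.08. With the mean of the other TOP and translation genes it was 0.85, with oxidative phosphorylation genes 0.77 and with mitochondrial ribosomal protein genes 0.73. Most of these lists also followed the number of genes detected. Given that number, the values were 0.69, 0.62 and 0.34. With ribosome biogenesis genes the correlation was 0.67 and 0.13 given that number, and with the mTOR and TOP regulators it was 0.55 and −0.12.

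Cell type marker lists differed in how they moved with the ribosomal protein genes. The correlation was 0.66 with the microglia list, 0.49 with the astrocyte list, 0.48 with the neuronal list and 0.37 with the endothelial and mural list. With the oligodendrocyte list it was 0.01. Given the number of genes detected, the values were 0.52, 0.26, 0.19, 0.22 and −0.22, so the microglia list stayed highest. Of its 12 markers 7 were detected in at least 30 cells, and its sum was under 1 FPKM in 6 cells. The endothelial and mural list, none of whose 8 markers reached 30 cells, was under 1 FPKM in 41 cells, so its correlation rests on few cells. The part of RNA from other cells in the members' level was not tested.

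RefSeq promoter sequences of GRCm38.p6, which run from 250 bases before to 50 after a gene's start, were matched by symbol for 67 of the 92 members. They were searched for 2 promoter features known from ribosomal protein genes. Whether these features bear on the joint detection of the members was not tested. A pyrimidine motif, CTTTC on the sense strand within 50 bases of the start, was found in 31 of 57 core genes (54.4%) and in 14.6% of all 27025 genes of the table. The motif CCGGAAG, or CTTCCGG on the other strand, is a core bound by ETS factors and was found anywhere in the 300 bases of 24 core genes (42.1%) and of 9.93% of all genes. Both occurred in the same promoter in 14 core genes (24.6%) and in 1.15% of all genes. Rpl19, with each motif in a different promoter, is not counted there. Among 69 mitochondrial ribosomal protein genes, the pyrimidine motif was found in 15.9%, near the level of all genes, and the ETS motif in 37.7%. A pyrimidine match can overlap an ETS match by 1 base at most, and a match is a description of letters, not a binding site.

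The windows from 60 bases before to 20 after the start are shown for 6 genes, with matches in capitals. Rpl38 and Rps10 have both motifs in view and Rps27 has the pyrimidine motif more than once. Rpl4 and Rps26 are abundant members with the pyrimidine motif, Rps26 also having an ETS match outside the window, and Rpl22l1 has neither.
Rpl38, chr11:114668520-114668599, plus strand: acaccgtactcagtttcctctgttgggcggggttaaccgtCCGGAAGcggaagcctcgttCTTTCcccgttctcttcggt
Rps10, chr17:27635225-27635304, minus strand: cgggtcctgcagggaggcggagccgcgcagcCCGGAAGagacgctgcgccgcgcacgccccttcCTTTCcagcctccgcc
Rps27, chr3:90213629-90213708, minus strand: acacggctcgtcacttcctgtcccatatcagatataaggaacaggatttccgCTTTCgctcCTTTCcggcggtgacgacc
Rpl4, chr9:64173327-64173406, plus strand: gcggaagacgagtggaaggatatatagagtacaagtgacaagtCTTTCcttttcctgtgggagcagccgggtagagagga
Rps26, chr10:128626487-128626566, minus strand: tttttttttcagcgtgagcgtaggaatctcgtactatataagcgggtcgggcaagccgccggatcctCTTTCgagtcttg
Rpl22l1, chr3:28805448-28805527, plus strand: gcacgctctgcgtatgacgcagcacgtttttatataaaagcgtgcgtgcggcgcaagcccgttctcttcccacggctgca

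Levels of core genes with and without the motifs overlapped over most of their range. The median FPKM of the 31 genes with the pyrimidine motif ran from 3.15 to 346 with a middle value of 55.8, and that of the 26 without it from 0 to 262 with a middle value of 86.9. With and without the ETS motif the middle values were 79.8 FPKM (24 genes) and 73.9 FPKM (33 genes). Rps27 and Rpl4, with the pyrimidine motif, had medians of 227 and 346 FPKM, while Rplp0, at 262 FPKM, had neither motif and Rpl38, with both, was at 93.1 FPKM. Paralogs and copies held the pyrimidine motif in 3 of 9 promoters and the ETS motif in 2.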

How the data were processed

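Values are those of 1 deposited table of FPKM per gene and cell, which the authors made from reads; per the submitters' processing notes, the tools were STAR 2.5.3a and featureCounts 1.5.3 on GRCm38. For the annotation release, the strand setting and multi-mapping reads, no setting is given in the sources used here, so reads of near-identical copies, overlapping genes and antisense partners cannot be told apart. The 51 spike-in rows were left out of the genes. Levels were compared as FPKM, or as log2(FPKM + 1), a scale that understates differences between low genes. Depth per cell was estimated from the spacing of low FPKM multiplied by GENCODE M21 exon length, available for 19358 genes. Up to 20 fragments, a median of 73.3% of values came out whole within 0.02, so fragments are estimates and no count model was used. In 5 cells at least 0.5% of low values fell midway between whole fragments.

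The samples are 59 cells of 1 group with no animal named, hence no p-value. Members and gene lists were chosen with earlier results of these data known. Genes named by rule are the 10 highest and 10 lowest medians, the 5 largest and 5 smallest spreads and every paralog. The rule also takes every member in fewer than 50% of cells and at most 6 genes of other lists. Last come the 10 genes most alike outside the lists. Other members, such as Rpl5, Rpl11, Rpl10, Rps6, Rps3 and Rps27a, are named outside this rule. Members and copies named for a length, a sequence, a promoter, a pair or a cell were chosen after their values were seen. A few genes the rule takes, 3 of them members, are counted in the totals but not reported here by name. Exact Clopper-Pearson intervals are at 95%. Python 3.11.15, pandas 2.3.3 and scipy 1.17.1 were used, and the steps were tested on simulated data. Alternatives changed the threshold, pseudocount, cells, scaling, filter and list summary.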

Additional observations from a re-analysis of the deposited data

How the results depend on the processing

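Of 80 alternative values for 13 results, 63 stayed close to the reported value, 12 moved and 5 changed sign. All 5 concern the members' level against the oligodendrocyte list, 0.01 as reported: −0.26 in the 46 cells with at least 2000 genes, −0.17 in the 39 cells with at least 500000 fragments, −0.10 with a pseudocount of 10, −0.063 with list medians and −0.22 given the number of genes detected. In the 46 cells, the correlation with genes detected was 0.46 and with the neuronal list 0.31, and the median member was detected in 93.5% of cells. In the 39 cells, the correlation with genes detected was 0.52 and with the astrocyte list 0.32. A pseudocount of 10 gave 0.52 with genes detected, and one of 0.1 put 65.5% of members below the running median of spread. Without mitochondrial genes and Rn18s-rs5 the share was 4.14%. Partial correlations, the level per principal transcript, the share without Rpl4, Rplp0 and Rplp1 (1.78%) and the ratio with the P stalk in the large subunit (0.940) were chosen after seeing the data. The partial correlations were 0.19 for the neuronal, 0.52 for the microglia, 0.26 for the astrocyte and 0.22 for the endothelial list. The cause of these changes was not tested. Members detected in at least 50% of the cells used ranged from 76, when only the 77 core genes were counted, to 81 in the 46-cell and 39-cell sets. List medians gave no value for the endothelial and mural list, which was at 0. No paired analysis was possible because the labels give 1 group.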
